A study of Caenorhabditis elegans with 2 samples.

Results

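The 7 protein-coding genes K12H4.5, mlcd-1, idhg-1, ears-2, uncp-18, ecps-1 and atx-2 lie at 4 chromatin regions with some of the highest signal for the worm Hox protein CEH-13 in early embryos. They were chosen by the measured signal. Peaks that passed a test of agreement between replicates (the irreproducible discovery rate, IDR) were ordered by signal, regions within 500 bp of a tRNA, snoRNA or snRNA gene were set aside, and the genes next to the strongest remaining promoter regions were taken. The members are 7 of 19973 protein-coding genes on the nuclear chromosomes, and their 4 regions are 4 of the 493 separate regions of the IDR list, 230 of which lie away from small RNA genes. Signal, rank and presence in the lists of peaks are therefore a description of the choice and carry no test.

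CEH-13 is the Caenorhabditis elegans member of the labial class of Hox proteins, homeodomain transcription factors that pattern the body axis of animals. It acts in the anterior of the early worm embryo, and labial-class proteins commonly bind DNA together with PBC-class homeodomain partners. Worm genes are compact, and neighbouring genes on opposite strands can share 1 short intergenic stretch as a promoter. Many worm transcripts have their first bases replaced by a spliced leader, so an annotated 5′ end can lie downstream of the place where transcription starts.

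Chromatin was immunoprecipitated with an antibody against GFP from strain OP756, which carries unc-119(tm4063) and the transgene wgIs756 with ceh-13::TY1::EGFP::3xFLAG and an unc-119(+) marker. Embryos of mixed sex, obtained by bleaching and aged 2 hours, were analysed whole, as 2 biological replicates of this single group, after sonication to 200 to 800 bp. The protein measured is thus the tagged product of a stably inherited transgene, in all cells of the embryo together. Both replicates name the same control experiment, and no sample of untagged worms was analysed here.

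The lists for replicate 1, replicate 2 and the pooled reads held 30000 peaks each, and the IDR list held 512. A peak in these lists has a signal score, which has no unit and differs in scale between lists, a q-value and a summit, the base of highest signal. Of the 20 strongest IDR peaks 15 lay at small RNA genes, and those peaks are not described here. In the pooled list 1146 peaks had a q-value under 0.05, against 1380 in replicate 1 and 1082 in replicate 2. The number of reads behind the lists is unknown, so no counting interval can be put on a signal.

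The DNA at the 4 summits is shown because it is the ground on which the regions can be compared. Each run is the plus strand of build WBcel235, cut where an annotated transcript begins. It covers chrIII:8043850-8044050 for K12H4.5, chrIII:4568654-4568796 for mlcd-1 and idhg-1, chrIV:390469-390559 for ears-2 and uncp-18, and chrIII:10461222-10461388 for ecps-1 and atx-2. In K12H4.5 the capitals mark homeodomain cores (TAATTG on either strand) and a run of overlapping GAGAGA matches on the minus strand. In the other runs they mark a pair of short words, GCGGC followed within 8 bases by TTGC, and the word CCGCAC, each on either strand.
K12H4.5: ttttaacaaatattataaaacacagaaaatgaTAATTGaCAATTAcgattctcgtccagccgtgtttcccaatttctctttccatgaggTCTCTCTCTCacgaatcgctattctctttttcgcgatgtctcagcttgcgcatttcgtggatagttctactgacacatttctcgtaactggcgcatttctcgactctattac
mlcd-1 and idhg-1: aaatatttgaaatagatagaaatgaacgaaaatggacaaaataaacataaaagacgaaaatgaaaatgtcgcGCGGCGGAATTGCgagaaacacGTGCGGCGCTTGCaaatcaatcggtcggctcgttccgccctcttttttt
ears-2 and uncp-18: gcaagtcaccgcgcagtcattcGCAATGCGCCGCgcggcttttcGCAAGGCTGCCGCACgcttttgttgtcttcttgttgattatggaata
ecps-1 and atx-2: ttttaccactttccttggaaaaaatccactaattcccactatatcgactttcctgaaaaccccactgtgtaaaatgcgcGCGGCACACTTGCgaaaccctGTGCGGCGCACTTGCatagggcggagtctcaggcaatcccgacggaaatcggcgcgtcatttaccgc

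The K12H4.5 region had the highest signal of all peaks in the pooled and IDR lists, small RNA genes included. K12H4.5 (WBGene00019680, chromosome III, bases 8044487 to 8044780, plus strand) is a gene of 1 exon with a coding sequence of 291 bp, for which RefSeq gives only an uncharacterized protein. The peak spanned bases 8043744 to 8044121 with its summit at 8043950, which lies 537 bp upstream of the gene. Its signal was 719.9 in the pooled and IDR lists, which carry the same values for the member peaks, 434.6 in replicate 1 and 281.8 in replicate 2. These values put it at rank 1 in the pooled list and in replicate 1 and at rank 2 in replicate 2. It was the top peak away from small RNA genes in every list, and the nearest small RNA gene was 25455 bp away. K12H4.6, an uncharacterized gene on the minus strand, has its 5′ end 1075 bp from the summit on the other side. The summit lay 1067 bp upstream of spcs-3, which encodes subunit 3 of the signal peptidase complex, the enzyme that removes signal sequences from secreted proteins. Of the 4 summits this one was the farthest from any annotated 5′ end.

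The region of mlcd-1 and idhg-1 lies between a pair of genes for mitochondrial enzymes. The gene mlcd-1 (WBGene00009439, chromosome III, bases 4566275 to 4568130, minus strand) encodes malonyl-CoA decarboxylase, which turns malonyl-CoA, the building block of fatty acid synthesis, into acetyl-CoA. The gene idhg-1 (WBGene00009440, chromosome III, bases 4568797 to 4571865, plus strand) encodes a subunit of the NAD-dependent isocitrate dehydrogenase of the citric acid cycle. The peak spanned bases 4568629 to 4568881. Its summit at 4568754 was 43 bp upstream of the longest idhg-1 transcript, 259 bp upstream of the shorter one and 624 bp upstream of mlcd-1. Its signal was 417.5 in the pooled and IDR lists, 239.5 in replicate 1 and 169.9 in replicate 2. The ranks were 12, 19 and 12, so the peak kept a place among the 20 strongest of 30000 in each list.

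The region of ears-2 and uncp-18 is the most compact of the 4. The gene ears-2 (WBGene00001338, chromosome IV, bases 388686 to 390468, minus strand) encodes the mitochondrial glutamyl-tRNA synthetase, which loads glutamate onto tRNA for protein synthesis in the mitochondrion. The gene uncp-18 (WBGene00020298, chromosome IV, bases 390560 to 393158, plus strand) encodes a syntaxin-binding protein of the Sec1/Munc18 family, whose members hold and guide the syntaxins that fuse vesicles with membranes. Their 5′ ends are 92 bp apart, and the summit at 390493 sat 25 bp upstream of ears-2 and 67 bp upstream of uncp-18. The peak spanned bases 390342 to 390637, so it reached into both genes. Its signal was 406.5 in the pooled and IDR lists, 250.7 in replicate 1 and 158.3 in replicate 2, at ranks 14, 14 and 18.

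The region of ecps-1 and atx-2 differed most in rank between the replicates. The gene ecps-1 (WBGene00008422, chromosome III, bases 10452753 to 10460551, minus strand) encodes a protein with the N-terminal domain of Ecm29, which in yeast binds the proteasome, the protease complex that degrades ubiquitin-tagged proteins. The gene atx-2 (WBGene00000231, chromosome III, bases 10461389 to 10468051, plus strand) encodes the worm ataxin-2, an RNA-associated protein that acts in translational control in the germ line. The peak spanned bases 10461218 to 10461471, with its summit at 10461322, 67 bp upstream of the longest atx-2 transcript and 771 bp upstream of ecps-1. Its signal was 390.7 in the pooled and IDR lists, 199.6 in replicate 1 and 187.2 in replicate 2. It ranked 18 in the pooled list, 30 in replicate 1 and 10 in replicate 2.

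**Figure D1:**
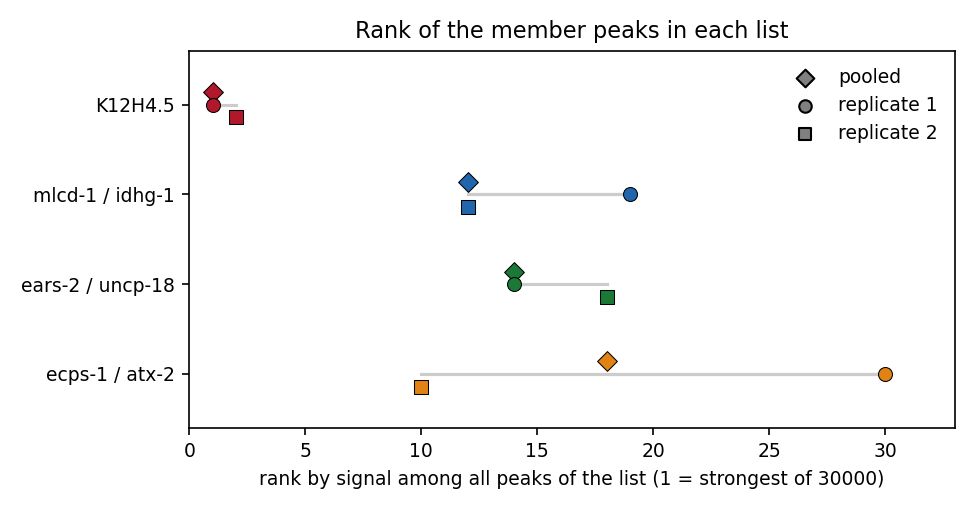
Rank by signal of the 4 member peaks (x axis, 1 is the strongest of 30000) in the pooled, replicate 1 and replicate 2 lists, with 1 row for each region. K12H4.5 stays at rank 1 or 2, and the widest span is that of ecps-1 and atx-2, at 30 in replicate 1 and 10 in replicate 2.

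All 7 members had an IDR summit within 2 kb of the 5′ end, as the choice requires, against 553 of the 19973 protein-coding genes, which is 2.77% (95% Wilson interval 2.55% to 3.01%). All 7 also had a summit of q-value under 0.05 within 2 kb in both replicates, against 581 genes or 2.91%. The IDR list is built from the same replicates, so nothing is read from either count. Away from small RNA genes the share with an IDR summit was 341 genes or 1.71%. A summit of q-value under 0.05 lay within 2 kb of 5.57% of genes in the pooled list, 6.46% in replicate 1 and 5.13% in replicate 2. At any q-value a summit lay within 2 kb of 66.4% of genes in the pooled list, 67.6% in replicate 1 and 69.2% in replicate 2, so presence in the full lists separates few genes from the rest. Every member peak was tied at the lowest q-value of its list, 0.001357 in the pooled list, 0.001307 in replicate 1 and 0.002268 in replicate 2. Of the 512 IDR peaks 369 shared that value, so the q-values do not order the members.

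The signal score was higher in replicate 1 than in replicate 2 at all 4 regions. So was the median of the whole list, at 21.2 in replicate 1 against 17.04 in replicate 2. The scale differs between lists, so this direction is not particular to the members. The ratio of replicate 1 to replicate 2 was 1.54 at K12H4.5, 1.41 at mlcd-1 and idhg-1, 1.58 at ears-2 and uncp-18, and 1.07 at ecps-1 and atx-2. Over the 226 other regions away from small RNA genes the median ratio was 1.46, with quartiles of 1.17 and 1.83. The K12H4.5, mlcd-1 and ears-2 regions therefore sat between the quartiles, and ecps-1 and atx-2 sat below it, with relatively more signal in replicate 2. All 4 member regions were among the 30 strongest peaks of both replicates, against 1 of the 226 other regions. The members were chosen by signal from these same replicates, so nothing is read from this contrast. The limit of 30 is also the rank of ecps-1 and atx-2 in replicate 1. The region next below the members, with a signal of 380.3, just missed it at ranks 20 and 31.

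Just inside the limit of the choice stood the ecps-1 and atx-2 region with an IDR signal of 390.7, and just outside it, with 380.3, stood a peak on chromosome III at bases 3499933 to 3500171. That peak lies inside the gene M01F1.8 with its summit 977 bp upstream of M01F1.9. The next in order was a peak of 328.3 on chromosome X, 172 bp upstream of T13C5.6 and with its summit inside the noncoding RNA gene C14F11.14. It was followed by one near C16C10.4 and rnf-121, with 326.1. One stronger peak, of 463.0 on chromosome IV at bases 11025861 to 11026396, covers the noncoding RNA gene F36H1.17. It is no member because no protein-coding 5′ end lies within 2 kb of its summit, the nearest being that of hrg-5 at 3267 bp. The gap in signal at the limit was thus much smaller than the gap between K12H4.5 and the region next below it.

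**Figure D2:**
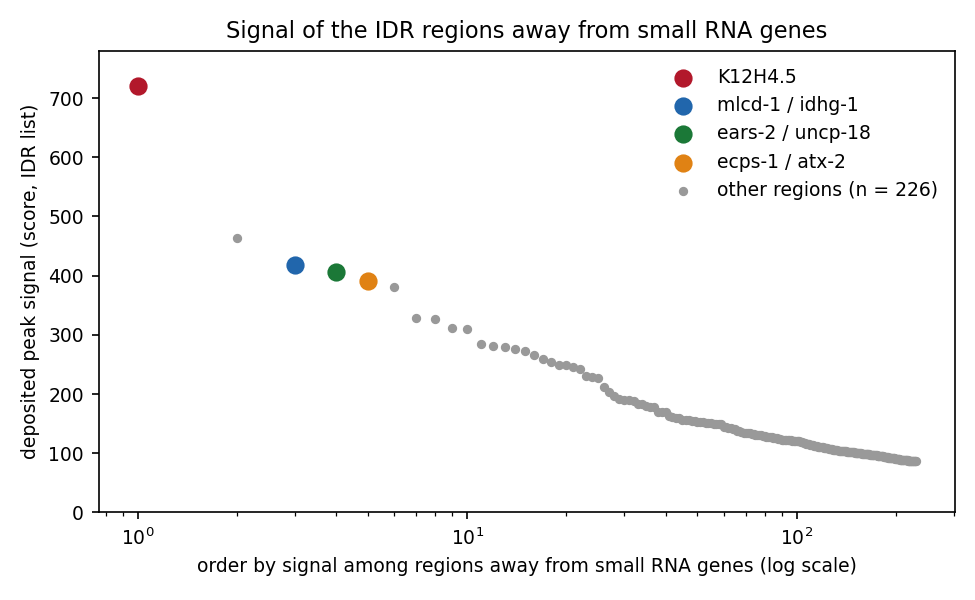
Deposited IDR signal (y axis, score) of the 230 regions away from small RNA genes in order of signal (x axis, log scale), with the 4 member regions in colour and the 226 other regions in grey. K12H4.5 stands apart at 719.9, and the remaining member regions, at 417.5, 406.5 and 390.7, run on into the other regions at 380.3.

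The summits of a member region fell close to each other in all lists. Across the IDR, pooled and replicate lists the highest and lowest summit were 23 bp apart at K12H4.5, 8 bp at mlcd-1 and idhg-1, 10 bp at ears-2 and uncp-18 and 4 bp at ecps-1 and atx-2. In the other 226 regions the median spread was 41.5 bp, and 47 of them, or 20.8%, had a spread of at most 15 bp. In the 10 regions next below the members, with signals of 271.9 to 380.3, the median spread was 26.5 bp (10 to 101 bp), and 2 of the 10 had at most 15 bp. Some of these 10 have their summit inside another noncoding RNA gene, since only tRNA, snoRNA and snRNA genes were set aside. The member peaks were 253 bp, 254 bp, 296 bp and 378 bp wide for mlcd-1 and idhg-1, ecps-1 and atx-2, ears-2 and uncp-18, and K12H4.5. The other regions had a median width of 420 bp, and 22 of the 226, or 9.73%, were narrower than 420 bp. The 10 regions next below the members were as narrow or narrower, at 142 to 266 bp with a median of 216.5 bp, and 8 of them were narrower than every member peak. Narrow peaks are thus shared with the regions nearest in signal. The rule did not use spread or width, but the member signals of 390.7 and more stand against a median of 110.5 in the other regions, and the part of signal in these values was not tested.

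The 4 summits lie between the 5′ ends of genes that point away from each other. The distance between those ends was 1612 bp for K12H4.5 and K12H4.6, 667 bp for mlcd-1 and idhg-1, 92 bp for ears-2 and uncp-18 and 838 bp for ecps-1 and atx-2. K12H4.6 is not a member although it lies within 2 kb of the strongest summit. Of the 226 other regions, 72, or 31.9% (95% Wilson interval 26.1% to 38.2%), had their summit between a divergent pair at most 2 kb apart. Only 183 of the 226 lay within 2 kb of a 5′ end, and the rest could not lie in such a pair. The members were taken as promoter regions, so the choice favours this layout and nothing is read from the contrast. Among all protein-coding genes 5121, or 25.6%, have such a partner, and among the 341 genes with an IDR summit away from small RNA genes 178, or 52.2%, do. With 1 kb as the limit K12H4.5 no longer had a partner, and the other 6 members did. The share was 17.5% of all genes and 43.1% of the genes with an IDR summit away from small RNA genes. These 6 members are partners of each other in pairs, so they do not count as separate cases beside those shares. In the 10 regions next below the members the summit lay between divergent 5′ ends, at most 2 kb apart, in 5. None of the 4 summits lay inside an annotated gene.

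In the 3 regions with a pair of member genes the summit was nearer to 1 of the pair. It was nearer to idhg-1, at 43 bp against 624 bp for mlcd-1, and nearer to atx-2, at 67 bp against 771 bp for ecps-1. At ears-2 and uncp-18 the distances, 25 bp and 67 bp, are well under the width of the peak, so the signal cannot be assigned to either gene. The start codons lay 637 bp, 270 bp, 79 bp, 113 bp, 772 bp and 67 bp from the summit for mlcd-1, idhg-1, ears-2, uncp-18, ecps-1 and atx-2. For K12H4.5 and atx-2 the annotated transcript begins at the start codon and RefSeq marks the record as partial, so their true 5′ ends are not given by the annotation. In the other regions the nearest 5′ end was a median of 334.5 bp from the summit. Of these 226, 28, or 12.4%, had 1 within 100 bp, as 3 of the 4 member regions did. For 1 of these 3 this rests on the Ensembl record of idhg-1, since the RefSeq record begins 259 bp from the summit. For the 183 other regions within 2 kb of a 5′ end the median was 242 bp. The members were taken as promoter regions, so closeness to a 5′ end was part of the choice and nothing is read from this contrast.

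**Figure D3:**
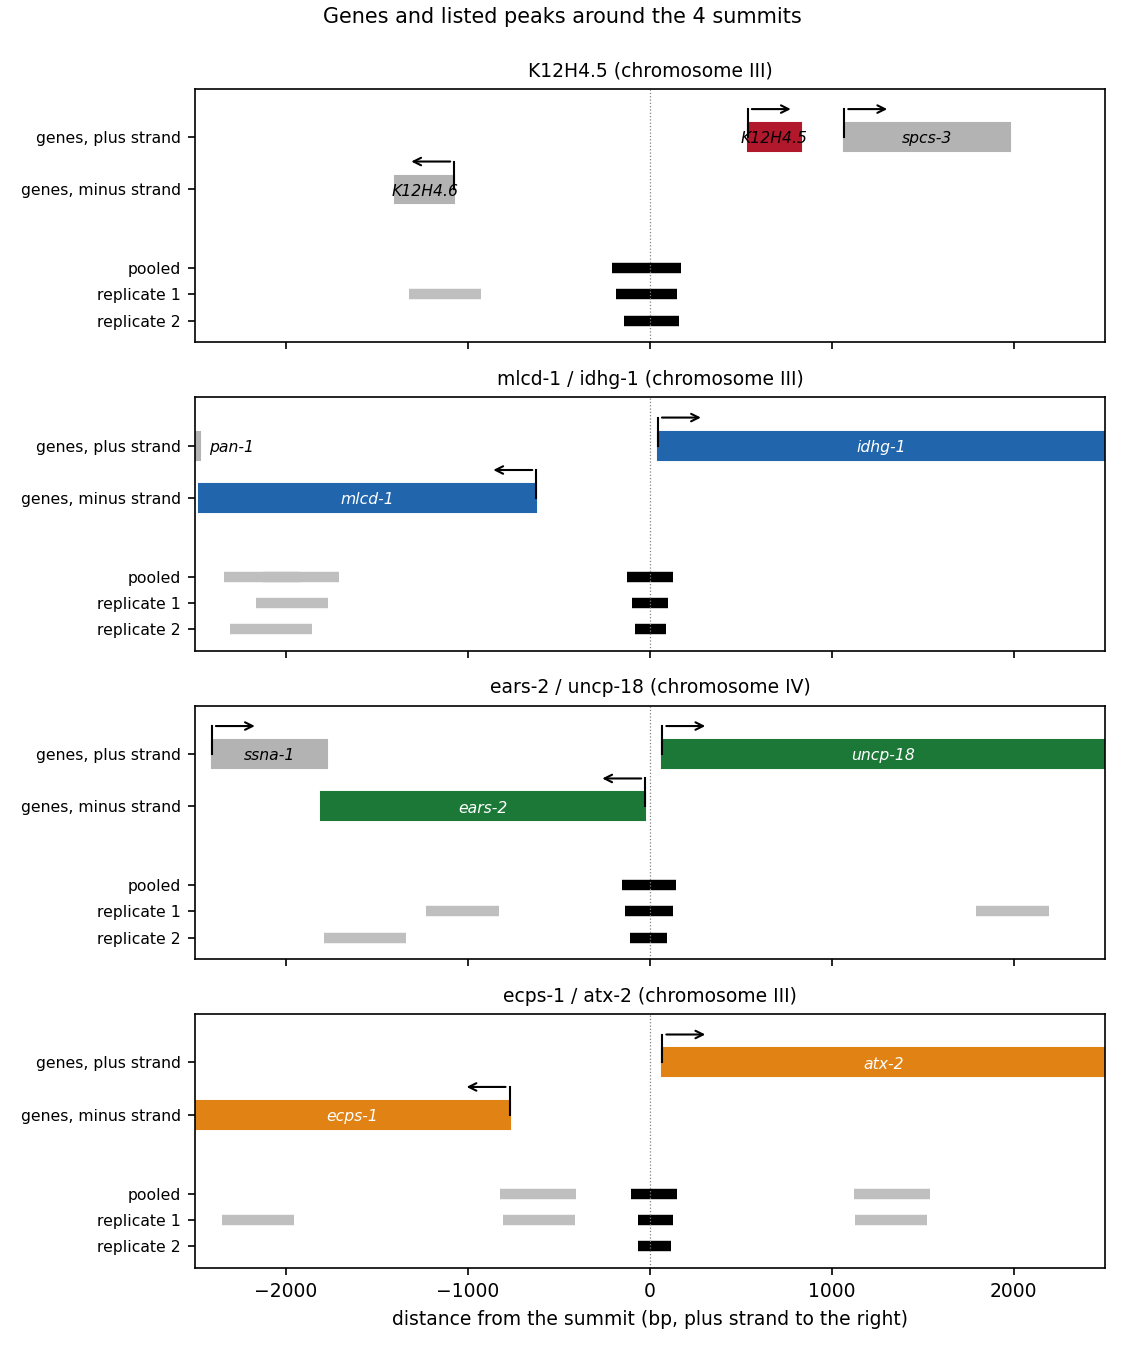
Genes (boxes, with an arrow at each 5′ end and members in colour) and listed peaks (bars, black for q-value under 0.05 and grey for higher) against distance from the summit in bp, for each of the 4 regions. Each region holds a single black peak per list at the summit, and in each map that peak stands between arrows that point away from each other.

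Other listed peaks within 2 kb of the members were weak. The IDR list held 0 beside the member peaks, the pooled list 4, replicate 1 held 7 and replicate 2 held 2, and no peak among these had a q-value under 0.05. The strongest was in replicate 1, 161 bp upstream of ecps-1, with a signal of 38.15 at rank 1646 and a q-value of 0.0702. Its pooled counterpart, 155 bp upstream of ecps-1, had a signal of 32.97 at rank 13992. A peak 1259 bp downstream of the atx-2 5′ end had a signal of 34.39 in replicate 1 and 35.42 in the pooled list, and replicate 2 listed no peak there. The neighbouring genes pan-1 (a protein associated with P granules, the germ granules of the worm), sel-5 (a serine/threonine kinase), ssna-1, T07A9.15 (a COX14 protein), H04D03.4 and D2045.5 had no IDR summit within 2 kb. Their best pooled peak beside the member peaks was at rank 1742, near sel-5.

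The members with a named product belong to different processes. Lists of their pathway partners held 0 to 3 other genes each with an IDR summit within 2 kb of the 5′ end. With the member counted, the shares of the lists ran from 5.41% to 20% of the matched genes and were not tested. Each list contains 1 member, which was chosen by this signal, so each count includes 1 by choice, and the background is 2.77% of all genes. Of 26 citric acid cycle genes 2 had a summit, idhg-1 and dlst-1, a subunit of 2-oxoglutarate dehydrogenase, with a signal of 100.3 at rank 403. Of 37 genes of malonyl-CoA and fatty acid metabolism 2 had one, mlcd-1 and the thiolase gene kat-1, with 88.48 at rank 492. Of 32 aminoacyl-tRNA synthetase genes 3 had one: ears-2, kars-1 for lysine, which shares the kat-1 peak, and fars-1 for phenylalanine, whose peak of 213.5 at rank 111 lies at a small RNA gene. The summit of the shared peak was nearer to kars-1 and lay over 1 kb upstream of kat-1.

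The lists for the last members held up to 3 other genes each. Of 5 genes for Sec1/Munc18 proteins only uncp-18 had an IDR summit. Of 37 proteasome genes 4 had one: ecps-1, pbs-5 (a core subunit, signal 266.1 at rank 64), rpn-7 (a lid subunit, 95.45 at rank 434) and rpn-8 (a lid subunit, 93.84 at rank 446, at a small RNA gene). Of 26 genes for ataxin-2 partners and germline translational regulators 3 had one: atx-2, mex-1 (a zinc finger protein of the early embryo, 155.8 at rank 187) and spn-4 (an RNA-binding protein of the early embryo, 87.49 at rank 502). A summit within 2 kb need not belong to the listed gene. The summit counted for pbs-5 lay over 1 kb upstream of it, but 349 bp from the 5′ end of K05C4.2. The one counted for rpn-7 lay 2 bp upstream of F49C12.9, and those for mex-1 and spn-4 were also nearer to another gene. Outside the members and away from small RNA genes, only dlst-1 and kars-1 were nearest to their summit. Outside the members the highest signal counted in any list was the 266.1 within 2 kb of pbs-5, below the 390.7 of the weakest member region. Away from small RNA genes this order follows from the choice, which took the genes at the strongest promoter regions. The gene products of mlcd-1, idhg-1 and ears-2, 3 of the 7, are named as mitochondrial by RefSeq, against 17 of the 333 other genes with a summit away from small RNA genes, or 5.11%, and 299 of 19962 named genes, or 1.5%. Because mlcd-1 and idhg-1 share a region, the 3 genes stand for only 2 regions. This comparison was not a planned one and was not tested, so nothing is read from it.

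Words were searched on both strands of the summit windows, 100 bp to each side of the summit. A homeodomain or composite word was in 2 of the 4 windows, too few windows to set this count apart from the background shares. TGATNNAT, a composite word of Hox and PBC proteins, was in 1 of the 4 windows, 75 to 82 bp from the summit of mlcd-1 and idhg-1, against 13 of 226 other regions, or 5.75%, and 16.3% of windows of the same length that end at an annotated protein-coding 5′ end. TAATTG was in 1 window, that of K12H4.5, in 2 facing copies 56 to 68 bp from the summit, against 9.73% of other regions and 17.4% of 5′ end windows. TAATTA was in 0 of the 4 windows, against 7.52% and 11.9%. The word CCGCAC, taken up because it was known from earlier work on these data, was in 3 of the 4 windows, against 52 other regions, or 23%, and 581 windows at 5′ ends, or 2.91%. The GC box core GGGCGG was in 2 of the 4 windows, against 19.5% and 5.97%. The forkhead words TGTTTAC and TGTTTGC, the TCF words CTTTGA and CTTTGT and the tRNA B box words GTTCGANNC and GTTCAANNC were in 0 of the 4 windows. They were in 1.33% to 7.96% of other regions and 0.906% to 14.5% of 5′ end windows, so a count of 0 in 4 windows is close to that background. CGCACA, which overlaps CCGCAC, was in 1 window, against 25.2% of other regions and 5.01% of 5′ end windows. GAGAGA was in 2, against 22.6% of other regions and 16.3% of 5′ end windows. A word in a window is a match of letters only, and nothing is drawn from it about the binding of a factor.

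The gapped pair of GCGGC and TTGC was found by reading the member sequences printed above, so its presence there is a description only. It occurred 2 times in the mlcd-1 and idhg-1 window, 3 times at ears-2 and uncp-18 (1 of these overlaps the 5′ end of ears-2, and only its last bases are printed) and 2 times at ecps-1 and atx-2, with gaps of 2 to 8 bases, and 0 times at K12H4.5. All 7 matches were centred within 50 bp of their summit. The pair often overlaps CCGCAC on the other strand, so these are not separate features. Of the 226 other regions 39, or 17.3% (95% Wilson interval 12.9% to 22.7%), held it, against 154 of 19973 windows at 5′ ends, or 0.771%. The overlapping word CCGCAC was known from earlier work on these data, so the other regions cannot be taken as independent of the definition. In these other regions 46 of the 60 matches within 500 bp of a summit, or 76.7%, were centred within 50 bp of it.

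The share of windows with the gapped pair was lower in the groups of weaker pooled peaks, but it was uneven among the strongest. None of the 10 regions next below the members held the pair (0 of 10). That count depends on where the set of 10 ends, which was set after the data were seen. Just below it, the regions at ranks 64, 72, 79 and 84 of the separate IDR regions held the pair. Away from small RNA genes and without the members, the share was 39 of 234 or 16.7% for pooled ranks 1 to 512. It was 17 of 427 or 3.98% for ranks 513 to 1000, 56 of 3838 or 1.46% for ranks 1001 to 5000, and 310 of 24644 or 1.26% for ranks 5001 to 30000. The median GC content of these windows was 42.79%, 46.27%, 43.28% and 39.8%, in the same order. The part of base composition in the shares was not tested. The member windows had a GC content of 39.3% for K12H4.5, 35.82% for mlcd-1 and idhg-1, 45.27% for ears-2 and uncp-18 and 53.23% for ecps-1 and atx-2. The other regions had a median of 42.79% and the windows at 5′ ends 32.84%.

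**Figure D4:**
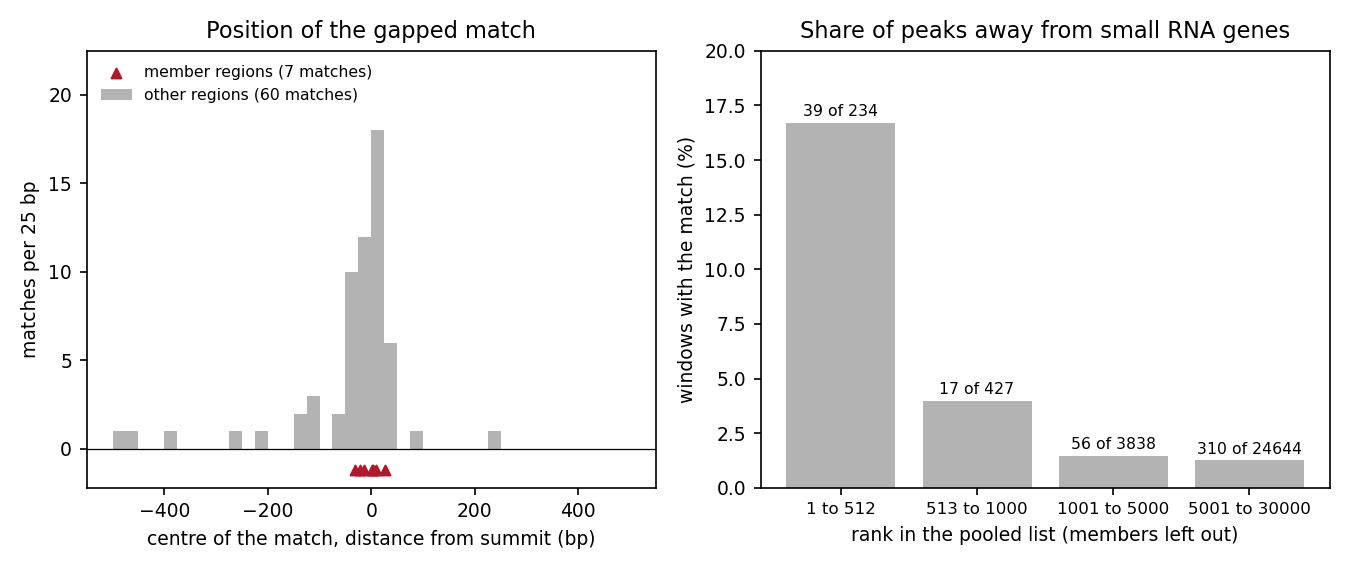
Left, distance of each gapped match from its summit in bp, with the 7 matches of the member regions as triangles and the 60 of the other regions as bars of 25 bp. Right, percent of summit windows with a match by rank in the pooled list, members left out, at 16.7%, 3.98%, 1.46% and 1.26%.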

How the data were processed

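Peak positions, signal scores and q-values were taken from 4 deposited lists per the labels of build ce11: 1 per replicate, 1 pooled and 1 IDR list. The signal is a score the authors' peak caller wrote per peak, and the significance column holds −log10 of a q-value, as deposited. What aligner, peak caller and IDR threshold were used is not given in the sources used here. Sequencing depth is unknown. Summits were placed on the Ensembl annotation of WBcel235 (release 115), whose sequence is that of ce11, and overlapping IDR peaks were merged into regions. A gene had a peak when a summit lay within 2 kb of its 5′ end. Counting was done with Python 3.11.15, numpy 2.4.6 and pandas 2.3.3, copies were sought with BLAST+ 2.17.0+ (E of at most 0.001), and the counting was tested on simulated data. No p-value was computed. The members and gene lists were chosen with earlier results of these data known, and the gapped pair and the tRNA B box words, and the set of 10 regions next below the members, after the data were seen. Genes named are the members, genes within 2 kb of or next to them, those beside the limit and list genes with an IDR summit. The count of mitochondrial products was not planned. In the lists 7 names matched no gene. Wilson intervals cover counting error only.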

Additional observations from a re-analysis of the deposited data

How the results depend on the processing

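With 1 kb in place of 2 kb, 364 protein-coding genes had an IDR summit, against 553. With 50 bp in place of 100 bp to each side, 0 of the 4 member windows held a homeodomain or composite word, against 2. Leaving out a replicate gave 3 to 4 member regions among the 20 strongest peaks, 509 to 543 genes with a summit of the list used and 12 to 14 pathway genes. RefSeq gene records and the gapped pair and B box words were added after the data were seen. No paired analysis was possible because there was 1 group. Values rest on 2 replicates of 1 transgenic line, and the lists hold no peak below their own lowest signal, so that the lack of a peak is not a lack of binding.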

Other observations

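The 201 bp around the summit of ears-2 and uncp-18 had similar stretches elsewhere in the genome, and those of the other three member regions had 0. A search found 29 matches in 25 stretches on 5 chromosomes. Of these, 17 were at least 75 bp long, at 76.83% to 84.81% identity, and 10 neighbouring pairs lay in opposite orientation within 5 kb. A gapped pair was within 50 bp of 24 of the 25. A pooled summit lay within 250 bp of 12 of them, where 14.1% of the genome lies so near to one, a pooled summit of q-value under 0.05 lay near 5, where the share is 0.561%, and an IDR summit near 1, where it is 0.25%. Stretches of a neighbouring pair can lie near the same summit, so these counts are not of separate sites. The stretches were also picked by likeness to a member sequence, and the contrast with the genome shares was not tested. Among the 226 other regions 101, or 44.7%, had no similar stretch elsewhere and 30, or 13.3%, had at least 29 matches. How reads from such copies were assigned is not given in the sources used here.

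Across the genome the gapped pair occurred 4103 times, and 60 of these, or 1.46%, lay within 100 bp of an IDR summit, members included, where 0.103% of the genome lies. Most copies of the pair thus had no IDR peak, and 506, or 12.3%, were within 100 bp of a pooled summit of any q-value. Of the 39 other regions with the pair, 21, or 53.8%, had their summit between divergent 5′ ends, against 51 of the 187 without it, or 27.3%. A 5′ end was within 500 bp of the summit in 34 of the 39, or 87.2%, against 104 of the 187, or 55.6%. The median signal was 123.2 with the pair and 108.2 without it.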
